A study of Papio anubis with 24 samples.

Results

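Sparse windows are stretches of 1 Mb on the numbered baboon autosomes in which the embryonic stem cell (ESC) list of methylated sites holds 20 or fewer peaks. They were chosen by the ESC peak count alone. Of 2584 complete autosomal windows, 355 passed this limit (13.7%). They hold 5783 of the 166961 ESC peaks and 832 of the 44434 peaks of the induced pluripotent stem cell (iPSC) list. The ESC counts that follow are therefore a description of what the rule took, while the iPSC list and the position of the windows did not enter it.

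DNA methylation was profiled by MeDIP-seq in pluripotent cells of the olive baboon, Papio anubis. In this assay sheared DNA is pulled down with an antibody against 5-methylcytosine and sequenced beside input DNA that was not pulled down. The ESC came from lines B4 and B15 and the iPSC from lines 160-2 and M14939#3, all grown on feeder cells. Each cell type has 6 MeDIP and 6 input libraries, 3 of each per line, which gives 24 libraries in 4 groups. In the labels of 5 of the 6 libraries of M14939#3, the cell line is written with a different number behind the hash. There is 1 deposited peak list per cell type and none per line, so the values below have no replicate error, no difference between the cell types was tested, and cell type cannot be told apart from line. Intervals are exact 95% intervals that cover counting error only and treat peaks or windows as independent, which neighbours are not.

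In mammals, DNA methylation is placed mainly on cytosines that precede a guanine, by enzymes that set new marks and an enzyme that copies them when DNA is replicated. Most such cytosines outside of promoter islands are methylated in pluripotent cells. An antibody pull-down collects a fragment more readily when it carries several methylated cytosines, so peaks mark DNA where such sites lie close together. A window with few peaks is thus not the same as a window without methylation.

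Sparse windows formed the lower edge of a broad range rather than a separate group. They held 3 to 20 ESC peaks, with a median of 17 and quartiles of 14 and 19, against a median of 49 (32 to 78) in the other 2229 windows. Just inside the limit, the 62 windows with 20 ESC peaks held 2.97 iPSC peaks each on average (2.55 to 3.43). Just outside it, the 43 windows with 21 ESC peaks held 2.79 (2.31 to 3.34). No step was seen at the limit. Only 14 windows had 10 or fewer ESC peaks.

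**Figure D1:**
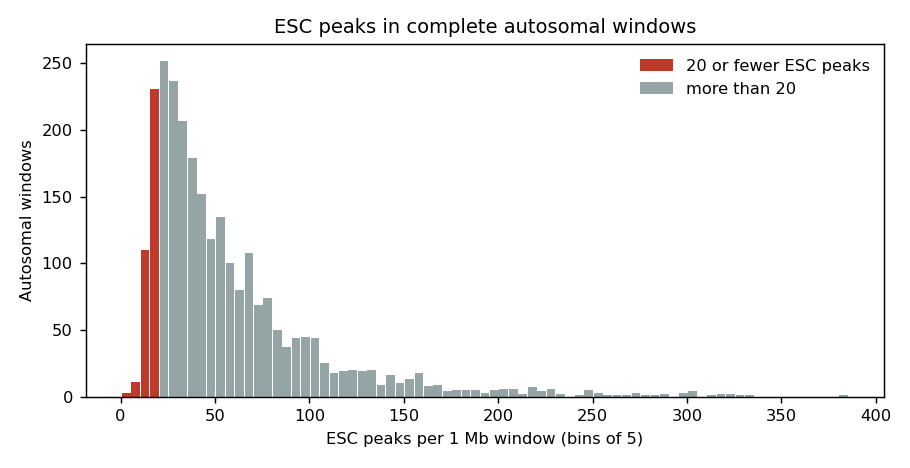
Number of complete autosomal windows of 1 Mb (vertical axis) by their count of ESC peaks in bins of 5 (horizontal axis), with the 355 sparse windows in red and the others in grey. The sparse windows are the left shoulder of a single skewed range that reaches 384 peaks.

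The iPSC list, which had no part in the choice, was also thin in these windows. Against all other windows pooled, it was thinned more than the ESC list. Sparse windows held 2.34 iPSC peaks each (2.19 to 2.51), with a median of 2, quartiles of 1 and 3 and a maximum of 11. The other windows held 17.4 each (17.3 to 17.6), with a median of 10. The density was 7.44 times lower in sparse windows, a ratio of 0.134 (0.125 to 0.144). The ESC density, on which the windows were picked, was 3.96 times lower. Against windows with 21 to 40 ESC peaks alone, the iPSC density was 2.11 times lower and the ESC density 1.83 times. Relative to ESC peaks, windows with 21 to 25 or 26 to 30 ESC peaks were near the sparse ones, as given below. The chromosome ends carry dense peaks in both lists, and leaving out other windows within 5 Mb of an end gave an iPSC ratio of 0.180 (0.168 to 0.193), against 0.295 for ESC. The sparse windows took up 13.7% of the windows, 3.86% of the ESC peaks in complete autosomal windows (3.77 to 3.96%) and 2.10% of the iPSC peaks (1.96 to 2.242%). In covered bases, ESC peaks filled 3.77 kb of a sparse window and 15.9 kb of another window on average, and iPSC peaks 0.621 kb and 5.53 kb.

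Relative to ESC peaks, iPSC peaks were about as frequent at 10 as at 30 ESC peaks per window and more frequent above that. Sparse windows had 14.4 iPSC peaks per 100 ESC peaks (13.4 to 15.5) and the others 27.0 (26.7 to 27.3). Choosing windows for low ESC counts raises this number by construction, by an amount that was not tested. Within the sparse windows it was 16.4 (9.35 to 27.1) at up to 10 ESC peaks, 16.6 (14.4 to 19.0) at 11 to 15 and 13.6 (12.4 to 14.8) at 16 to 20. It was 14.6 (13.6 to 15.7) at 21 to 25, 14.9 (14.0 to 16.0) at 26 to 30 and 18.2 (17.4 to 19.0) at 31 to 40. Windows with 101 or more ESC peaks had 35.6 (35.0 to 36.1). With the ESC list shortened to the length of the iPSC list, by keeping the 44434 peaks with the highest −log10 q-values, sparse windows held 1393 ESC peaks. That gave 59.7 iPSC per 100 ESC peaks in sparse windows and 104.0 in the others.

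**Figure D2:**
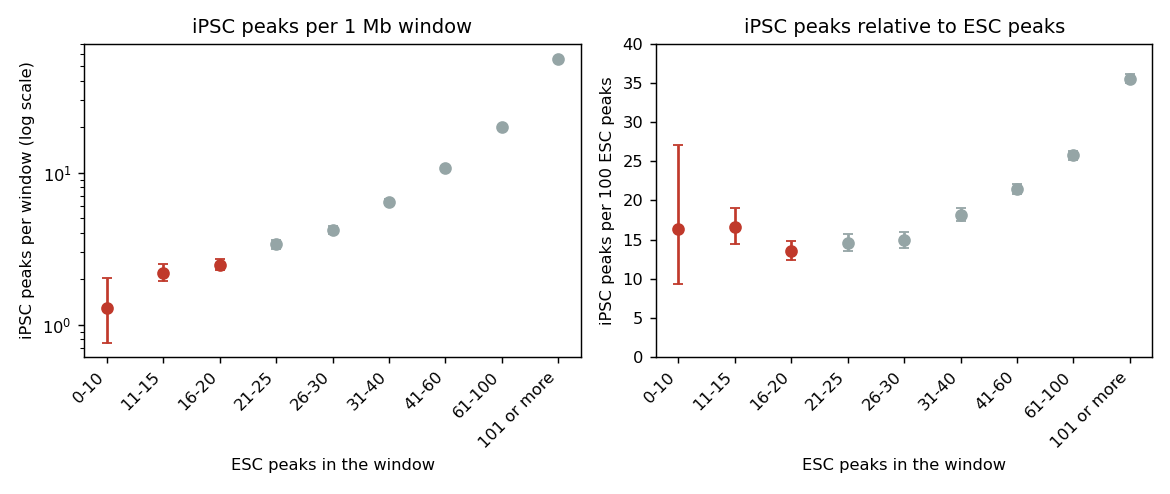
Left, iPSC peaks per window on a log scale, and right, iPSC peaks per 100 ESC peaks, both by the number of ESC peaks in the window, with exact 95% counting intervals and sparse windows in red. The left values go from 1.29 to 55.7 per window, while the right values lie between 13.6 and 16.6 up to 30 ESC peaks and reach 35.6 in the densest windows.

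A sparse window without any iPSC peak was uncommon but more frequent than in the other windows pooled. Of the 355 windows, 45 had no iPSC peak, or 12.7% (9.40 to 16.6%), against 2.83% over all complete autosomal windows. The other windows had 28 such cases (1.26%, 0.836 to 1.81%), all with 37 or fewer ESC peaks. The share was graded: 10.4% (6.77 to 15.1%) at 16 to 20 ESC peaks, 5.95% (3.37 to 9.63%) at 21 to 25 and 4.22% (2.04 to 7.62%) at 26 to 30. At the limit itself it was 3.23% (0.393 to 11.2%) at 20 ESC peaks and 9.30% (2.59 to 22.1%) at 21. The 45 windows held 5 to 20 ESC peaks (median 16) and lay on 15 chromosomes. At most 2 iPSC peaks were present in 58.9% of the sparse windows and in 17.1% of all windows. At the upper end, 17 sparse windows had 6 or more iPSC peaks.

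Sparse windows lay in the interior of the chromosomes. None of the 355 lay within 5 Mb of a chromosome end, where 7.74% of all windows lie, and a count of 0 here allows a share of up to 0.845% when taken as 3 windows of 355, or 1.03% as the upper Clopper-Pearson limit. Within 10 Mb there were 4 (1.13%, 0.308 to 2.86%), against 15.5% of all windows. The nearest sparse window began or ended 6.34 Mb from an end, and their median distance was 46.7 Mb, against 30 Mb for the other windows. The end of a chromosome was taken as the last peak in either list, so distal distances are measured from that peak.

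By chromosome, sparse windows were most common on chromosome 5, with 50 of 183 windows (27.3%), followed by chromosome 4 with 33 of 166 (19.9%). Chromosomes 10 and 16 had 2 each, and chromosomes 19 and 20 had 1 each. On every autosome the iPSC density was lower in sparse windows than in the other windows of the same chromosome, and so was the number of iPSC per 100 ESC peaks. On the 15 autosomes with at least 10 sparse windows, the ratio of iPSC densities ran from 0.0946 on chromosome 14 to 0.302 on chromosome 2, with a median of 0.143. On chromosome 2 the other windows were themselves poor, at 8.75 iPSC peaks each. Chromosome 13 had the highest iPSC density in sparse windows among these 15, at 4.06 per window (3.16 to 5.14), against 2.26 (2.10 to 2.42) in the sparse windows of all other autosomes. The counts there were uneven, from 0 to 11. Of its 17 sparse windows, 5 had 6 or more iPSC peaks, against 12 of 338 on the other autosomes.

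**Figure D3:**
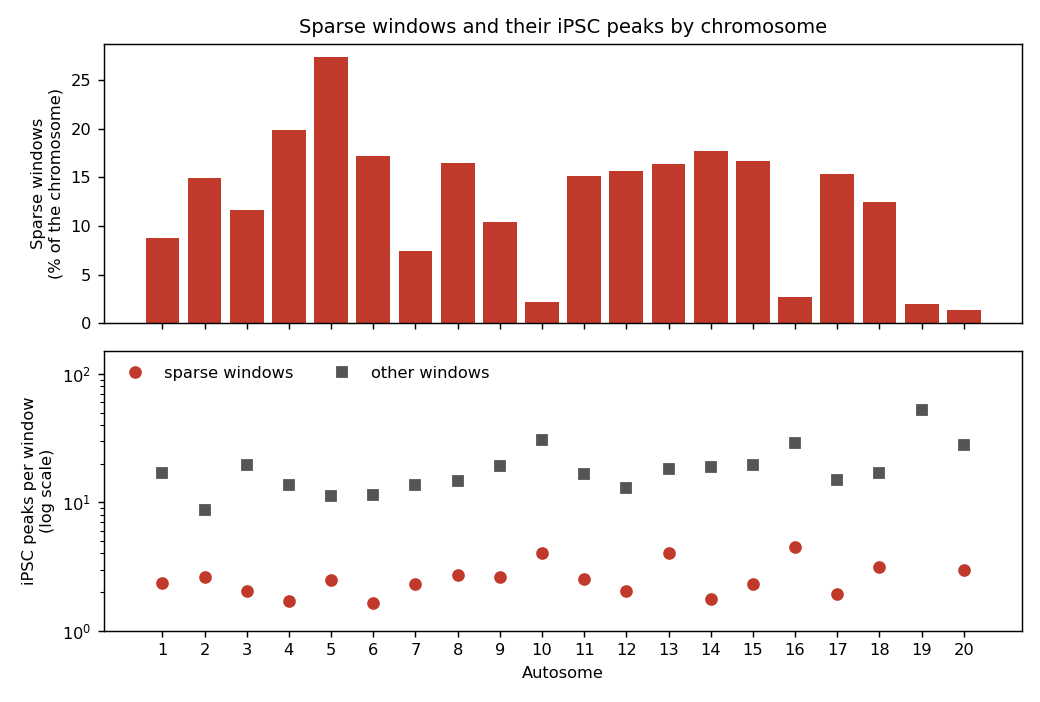
Top, sparse windows as a percentage of the complete windows of each autosome, and bottom, mean iPSC peaks per window on a log scale in sparse windows (red circles) and other windows (grey squares). Chromosome 5 stands highest at 27.3%, the red circles lie below the squares on each autosome, and chromosome 19 has no red circle because its 1 sparse window holds no iPSC peak.

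The windows clustered. The 355 fell into 224 runs of adjacent sparse windows, of which 139 were single windows, 56 had 2 windows, 17 had 3, 9 had 4, 1 had 5 and 2 had 6. Runs of 2 or more held 216 windows (60.8%). Of the 710 windows directly beside a sparse window, counted once per side, 36.9% were sparse themselves, against 13.7% of all windows. Peak density then climbed with distance. That distance is counted from windows picked for low ESC counts, and every other window holds more than 20 ESC peaks. The ESC climb is therefore a description. The 403 other windows next to a sparse one had a median of 31 ESC and 4 iPSC peaks. Windows 5 away had 50 and 10, and windows more than 20 away had 98 and 29. The iPSC peaks per 100 ESC peaks went from 16.1 next to a sparse window to 24.97 at 5 windows and 34.0 beyond 20. Distance was not separated from chromosome or from nearness to a chromosome end here. Chromosomes 10, 16, 19 and 20, with 1 or 2 sparse windows each, averaged 89.8 to 143 ESC peaks per window over all their windows.

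The density of iPSC peaks also differed with the place inside a run. Within 100 kb of a run's edge there were 3.01 iPSC peaks per Mb (2.53 to 3.57). From 100 to 250 kb there were 2.37 (2.01 to 2.76), from 250 to 500 kb 2.51 (2.22 to 2.82), and farther in, which only runs of 2 or more windows reach, 1.96 (1.73 to 2.22). The ESC values in the same order were 18.5, 16.5, 16.0 and 15.7 per Mb.

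The 5 longest runs, with ties at 4 windows taken in chromosome order, had 21 to 41 ESC peaks in the windows on either side. The run on chromosome 9 from 74000001 to 80000000 held 95 ESC peaks, from 11 to 19 per window, and 11 iPSC peaks, from 1 to 4, of which 7 overlapped an ESC peak. The run on chromosome 14 from 38000001 to 44000000 held 113 ESC and 10 iPSC peaks, of which 4 overlapped. The windows before and after it had 29 and 36 ESC and 6 and 7 iPSC peaks. On chromosome 12 from 96000001 to 101000000 there were 76 ESC and 7 iPSC peaks, and 2162 kb passed without an iPSC peak. The run on chromosome 2 from 118000001 to 122000000 held 73 and 13 peaks, and the run on chromosome 4 from 47000001 to 51000000 held 71 and 12. Across all 12 runs of 4 or more windows, iPSC density lay between 0.5 and 3.50 peaks per Mb (median 1.92) and the longest stretch without an iPSC peak between 837 and 2736 kb. The lowest value belonged to chromosome 4 from 62000001 to 66000000, which was named after its values were seen. It held 60 ESC and 2 iPSC peaks, while the window before it held 23 and 8 and the window after it 31 and 2.

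**Figure D4:**
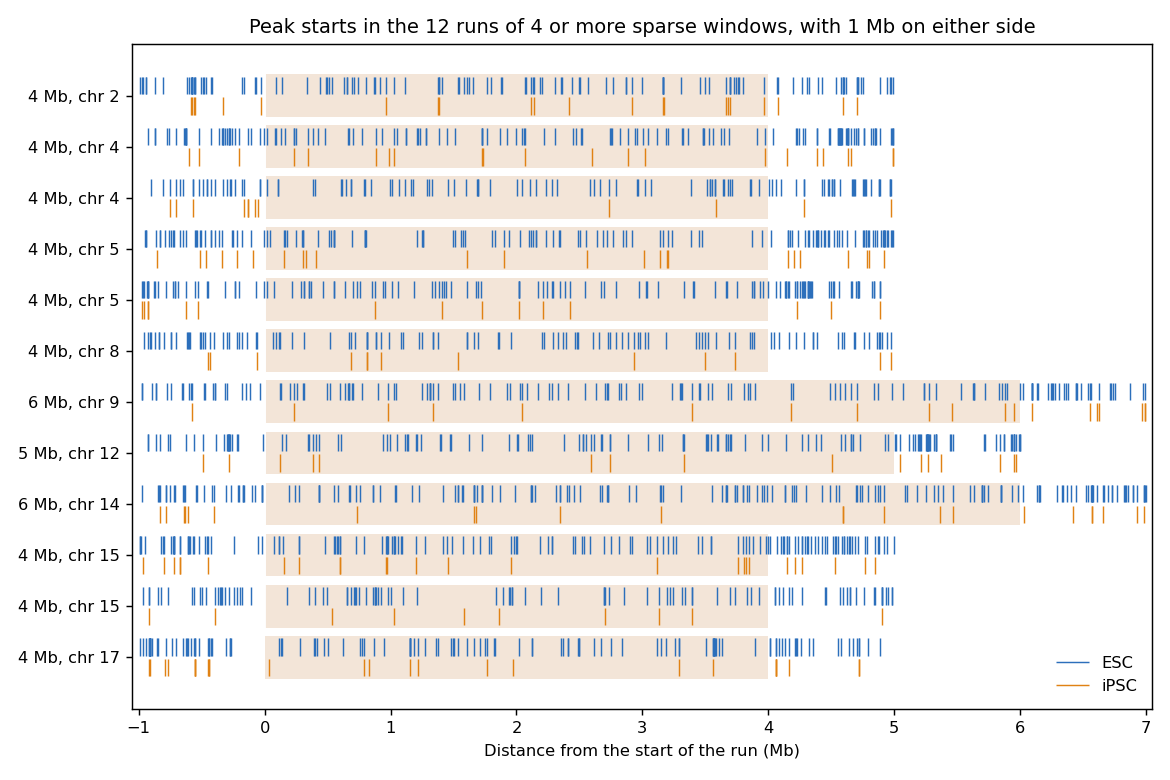
Starts of ESC peaks (blue) and iPSC peaks (orange) along the 12 runs of 4 or more sparse windows (shaded) and 1 Mb on either side, by distance from the start of the run in Mb, in order of chromosome and position. The longest stretch without a peak in a run is 214 to 629 kb for ESC, at 13 to 18.8 peaks per Mb, and 837 to 2736 kb for iPSC, at 0.5 to 3.50 per Mb.

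The 3 windows with fewest ESC peaks each contained a long stretch free of ESC peaks, a length that so low a count itself stretches. Chromosome 2 from 163000001 to 164000000 had 3 ESC and 2 iPSC peaks, none of them overlapping, and its first 448 kb held no ESC peak. Chromosome 13 from 56000001 to 57000000 had 5 ESC and no iPSC peaks, with 545 kb free of ESC peaks. Chromosome 19 from 21000001 to 22000000 also had 5 and none, with 501 kb free up to its right edge. The median sparse window had a longest ESC-free stretch of 201 kb (quartiles 171 and 248 kb). Inside runs of sparse windows the 3 longest ESC-free stretches lay on chromosome 15 from 52208870 to 52838233 (629 kb, 1 iPSC peak), on chromosome 13 from 56360519 to 56905957 (545 kb) and on chromosome 19 from 21498532 to 22000000 (501 kb), the last pair without an iPSC peak. The stretch on chromosome 19 was ended here at the edge of its run. It goes on to 22264829 in the next window, which makes it 766 kb, the longest ESC-free stretch between peaks on the autosomes. Whether such stretches hold gaps in the assembly or repeats to which reads cannot be placed was not tested, because no genome of the build was used here. Of 225 ESC-free stretches of 200 kb or more, 53 held iPSC peaks, 66 in all, over 59.2 Mb.

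The 3 sparse windows with most iPSC peaks were all on chromosome 13. From 87000001 to 88000000 there were 20 ESC and 11 iPSC peaks, of which 4 overlapped. The window before had 51 and 6 and the window after 142 and 51. From 18000001 to 19000000 there were 19 and 9, between windows with 12 and 7 and with 60 and 20. From 65000001 to 66000000 there were 20 and 9, between windows with 61 and 9 and with 26 and 5.

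Peaks in sparse windows stood apart from each other. The nearest ESC peak was 18562 bp away at the median for an ESC peak, against 3271 bp in other windows, a distance that the rule itself stretches. For iPSC peaks the nearest iPSC peak was 122142 bp away, against 7174.5 bp. Yet 8.65% of iPSC peaks in sparse windows (72 of 832) had another iPSC peak within 1 kb, as did 16.5% elsewhere. The corresponding ESC shares were 7.30% and 23.6%. In windows with 21 to 40 ESC peaks the shares were 6.86% for iPSC, below that of the sparse windows, and 10.7% for ESC.

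The peaks were narrower and of higher fold than in all other windows pooled, but their medians were close to those in windows with 21 to 40 ESC peaks. The fold is the authors' ratio of fragments at a peak's summit to a local background in the same list. For iPSC, whose values the rule did not use, the median fold was 2.82 (quartiles 2.36 and 3.34) in sparse windows and 2.58 (2.21 and 3.04) in others. The median iPSC width was 225 bp (exact interval of the median 223 to 229 bp) against 241 bp. Peaks of 500 bp or more made up 3.73% of iPSC peaks in sparse windows (31 peaks, 2.55 to 5.25%) and 10.5% in others. In windows with 21 to 40 ESC peaks this share was 6.62% (5.90 to 7.41%), so on this measure the sparse windows were lower. ESC peaks, described without a test as they come from the contrast that chose the windows, had a median fold of 2.55 against 2.27 and a median width of 208 bp against 215 bp. In windows with 21 to 40 ESC peaks, the median iPSC fold was 2.74 and the width 227 bp, and the ESC values were 2.48 and 208 bp.

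Median fold and median width also moved with the background behind each peak. The share of peaks of 500 bp or more was not split by background. The authors' fold and −log10 p-value of a peak together fix its pileup and its background. The background is given as a multiple of the lowest one in its list, 11.99 fragments for ESC and 10.2 for iPSC. The median iPSC background was 1.66 in sparse windows and 2.47 in others, and the median pileup was 4.93 and 6.61 in the same multiples. For ESC the backgrounds were 1.64 and 2.46. A background of at most 1.5 lay behind 40.9% of iPSC peaks in sparse windows and 11.7% in others. Among peaks of like background, the median folds and widths of sparse and other windows were near each other. The background is computed from the fold, and calling sets a lowest fold for a given background. Near folds within a class are thus in part built in and are given as a description. For iPSC peaks with a background over 1 and up to 1.5, the median fold was 3.15 in sparse and 3.13 in other windows and the median width 218 and 216 bp. The widest gap in median fold was at the lowest background, 3.53 over 72 iPSC peaks of sparse windows against 3.35. With a background of 2 to 3 the folds were 2.53 and 2.59 and the widths 239 and 238 bp. Peaks were called at this depth only from a fold of 1.85 (ESC) or 2.12 (iPSC) where the background was lowest, so weaker enrichment was not detectable there.

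Most iPSC peaks lay on ESC peaks, in sparse windows as in others. Of the 832, 514 overlapped an ESC peak by at least 1 bp, or 61.8% (58.4 to 65.1%), against 66.3% over all complete autosomal windows. For iPSC peaks it was 67.5% (64.2 to 70.6%) in windows with 21 to 25 ESC peaks. At 26 to 30 it was 64.5% (61.4 to 67.5%) and at 41 to 60 62.9% (61.5 to 64.1%). Of the 5783 ESC peaks, 515 overlapped an iPSC peak, or 8.91% (8.18 to 9.67%), against 17.8% overall. The windows most like them were near this share, with 9.91% (9.16 to 10.7%) at 21 to 25 ESC peaks and 9.71% (9.01 to 10.5%) at 26 to 30. Windows with 101 or more ESC peaks had 25.1%. In the 14 windows with 10 or fewer ESC peaks, 5 of 18 iPSC peaks overlapped (27.8%, 9.69 to 53.5%). Overlap too moved with the background. Of ESC peaks in sparse windows, 0.293% overlapped at the lowest background (2 of 682), 12.5% at 2 to 3 (10.8 to 14.4%) and 37.6% above 3 (33.9 to 41.5%). In other windows these shares were 0.318%, 10.6% (10.3 to 10.9%) and 39.6% (39.2 to 39.99%). Between 1.5 and 2 the share was higher in sparse windows, 5.25% (4.07 to 6.66%) against 3.59% (3.36 to 3.84%). Weighting the shares of the other windows by the background mix of the sparse windows, in 5 classes chosen after the values were seen, gave 8.20% for ESC, beside the 8.91% found. For iPSC the weighted share was 59.3% and the share found 61.8%. The part of the background in the differences of fold, width and overlap was not tested. In the class above 3, iPSC peaks of sparse windows overlapped more often, at 90.8% (82.7 to 95.9%) against 79.6% (78.8 to 80.3%).

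**Figure D5:**
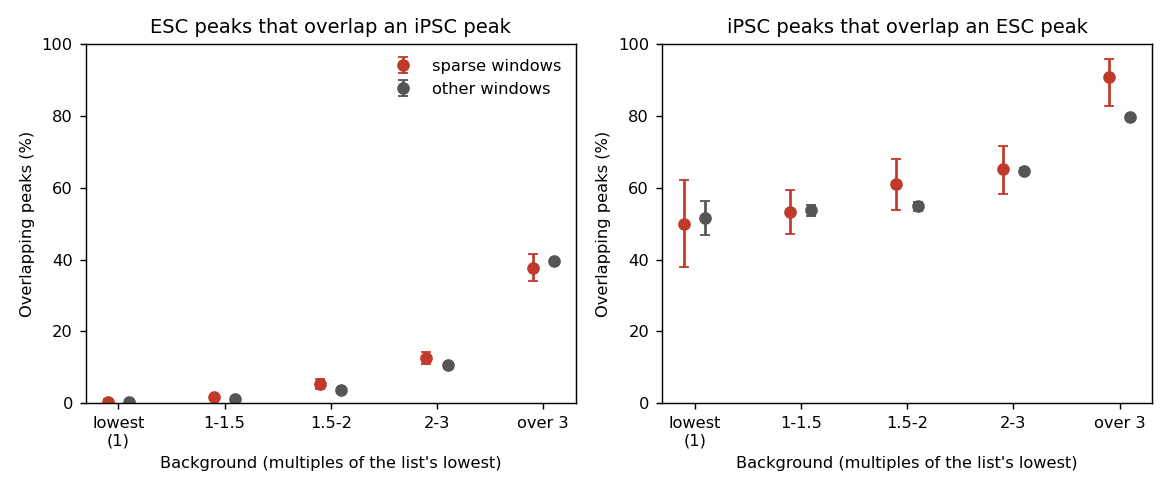
Share of ESC peaks that overlap an iPSC peak (left) and of iPSC peaks that overlap an ESC peak (right) by recovered background, in multiples of the lowest of the list, for sparse windows (red) and other windows (grey), with exact 95% counting intervals. The shares of both kinds of window climb together, from 0.293% to 37.6% for ESC in sparse windows, and the intervals part most clearly for iPSC peaks above 3.

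At 504 places in sparse windows a single ESC peak met a single iPSC peak. Their summits were 17 bp apart at the median, against 19 bp at 25121 such places elsewhere. The iPSC fold exceeded the ESC fold at 71.2% of these places (67.1 to 75.1%), against 77.0% elsewhere (76.5 to 77.6%). Median folds were 2.84 for iPSC and 2.37 for ESC, and 2.58 and 2.08 elsewhere. The recovered pileup, in multiples of each list's lowest background, exceeded that of ESC at 4.17% of these places (2.60 to 6.30%), so the 2 measures gave opposite orders. Each list has its own background, and the levels are not directly comparable.

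The remaining 318 iPSC peaks had no ESC peak on them. They lay 20260 bp from the nearest ESC peak at the median, against 3504 bp for the 13060 such peaks in other windows, again a distance set in part by the rule. Of the 318, 21 were within 1 kb of an ESC peak and 58 were more than 50 kb from one, the farthest 253711 bp away. Their median fold was 2.78 and their median background 1.47.

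None of the 5 ESC peaks of highest fold in the sparse windows overlapped an iPSC peak, and 8.91% of all ESC peaks there did. Of the 5 iPSC peaks of highest fold, 4 overlapped an ESC peak, beside 61.8% of all iPSC peaks there. No difference from these shares was tested. The ESC peak of highest fold lay on chromosome 14 between 49082306 and 49082535, with a fold of 6.01. The next was on chromosome 1, from 129097891 to 129098166 (fold 5.86). Chromosome 5 held a peak of fold 5.54 between 110313377 and 110313602 and one of fold 5.31 between 129683704 and 129683904. Chromosome 2 held another of fold 5.54, between 138957620 and 138957818. These 5 were 12.3 to 563 kb from the nearest iPSC peak, and each had a background of at most 1.27. The iPSC peak of highest fold lay on chromosome 12 between 15268647 and 15269035. Its fold was 7.68, and that of the ESC peak under it was 1.52. The iPSC background there was 1.04 times the lowest of its list, the ESC background 7.09 times. On chromosome 8 between 78186296 and 78186926 the folds were 6.86 for iPSC and 1.37 for ESC, and the backgrounds 1.58 and 15.2. The peak on chromosome 1 from 96299220 to 96299473 had a fold of 5.15, with 2.35 in ESC. The peak on chromosome 15 from 33366590 to 33366840 had 5.07, with 3.45 in ESC. The peak on chromosome 4 from 76980760 to 76980960 also had 5.07 and was 32.0 kb from the nearest ESC peak. The widest ESC peak, 1155 bp on chromosome 12 from 98743043 to 98744197, lay in the run of 5 windows described above and overlapped an iPSC peak of 1096 bp. Its ESC background was 10.9 times the lowest. The widest iPSC peak, 1794 bp on chromosome 14 from 82972870 to 82974663 (fold 4.57), overlapped an ESC peak of 200 bp and fold 1.26, with backgrounds of 2.86 and 15.2. The order by fold favours sites of low background, since the fold is a ratio to it.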

How the data were processed

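The 2 peak lists, 1 per cell type, were used. The submitters' processing notes name SAMtools 1.10, Picard 2.239, deepTools and MACS2. Aligner, genome build, MACS2 options and the way libraries were joined were all not given in the sources used here, so no gene or sequence was assigned. Per the file layout, the authors deposited for each peak a fold (a linear ratio at the summit), a −log10 p-value, a −log10 q-value (at least 1.30 in both lists) and a score that is 10 times the −log10 q-value without decimals for 99.99% of ESC and 99.98% of iPSC peaks. Depth per library is unknown.

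Peaks were placed in windows by the start column divided by 1 Mb, and the last, incomplete window of each autosome was left out. Coordinates are counted from 1. Pileup and background were recovered by assuming fold = (pileup + 1) / (background + 1) and a Poisson tail for the p-value, with the pileup a whole number of fragments times 1 factor per list (1 for ESC, fitted as 0.690 for iPSC). The solution met the deposited p-value within 0.002 for 100% of ESC and 99.7% of iPSC peaks. No label or header says whether the background came from the input libraries. Overlaps were found with bedtools 2.31.1. Shares carry Clopper-Pearson intervals, counts exact Poisson intervals and density ratios conditional binomial intervals. The recovery, windows, runs, overlaps, distances and ratio intervals were tested on simulated data. Calculations ran in Python 3.11.15 (scipy 1.17.1, numpy 2.4.6, pandas 2.3.3, matplotlib 3.10.9).

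Named by rule were the 5 longest runs (no run reached 8 windows), the 3 windows with fewest ESC and with most iPSC peaks, the 3 longest ESC-free stretches in runs, and in each list the 5 peaks of highest fold and the widest. The windows, rules and named items were chosen with earlier results of these data known.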

Additional observations from a re-analysis of the deposited data

How the results depend on the processing

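Of 67 alternative values, 46 stayed within the counting interval of the main value or, for counts, within 1.5 times of it, 21 moved and 0 reversed. Leaving out other windows within 5 Mb of an end was chosen after seeing the data. A limit of 15 ESC peaks left 124 windows, a longest run of 3 Mb, 16.6 iPSC per 100 ESC peaks, 16.9% of windows without an iPSC peak and 9.75% of ESC peaks overlapping. A limit of 25 left 607 windows, a longest run of 10 Mb and an iPSC density ratio of 0.144. Windows of 0.5 Mb with a limit of 10 numbered 928, with 16.1 iPSC per 100 ESC peaks and 34.4% without an iPSC peak, as shorter windows hold fewer peaks. With peaks of −log10 q of at least 5 alone, 20.6% had no iPSC peak, 55.8% of iPSC peaks overlapped and the ratio of median iPSC widths, sparse over other windows, was 0.922, against 0.934 with all peaks. With peaks within 1 kb merged it was 0.915. In these tries the 355 windows stayed as chosen. With an ESC list of the iPSC length there were 59.7 iPSC per 100 ESC peaks, and 28.6% of iPSC peaks overlapped, as fewer ESC peaks were left to meet. Of the ESC peaks left, 16.9% overlapped. Requiring 50% overlap of both peaks gave 57.7% for iPSC. An end zone of 10 Mb held 1.13% of windows, being wider. Without other windows near ends the iPSC density ratio was 0.180. Where no reason is given, the cause was not tested. No paired analysis was possible because the ESC and the iPSC each come as a single list without values by replicate. For the same reason no replicate could be left out. Where the background was lowest, folds under 1.85 (ESC) and 2.12 (iPSC) were not called.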
